A study of Mus musculus with 15 samples.

Results

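The iron handling genes of the liver were followed in mice that carried a chemically induced liver tumour, with and without forced expression of Gas1. The set held 10 genes: the hormone genes Hamp and Hamp2, the receptors and sensors Tfrc, Tfr2 and Hfe2, the plasma carrier Trf, the ferritin subunits Fth1 and Ftl1, the exporter Slc40a1 and the ferroxidase Cp. They were chosen by name, as all non-control probes whose gene name on the array was one of the 10. This gave 14 of the 55681 non-control probes and 10 of the 22032 gene symbols. Of the 10, 9 were listed under these names, and Tfr2 was found under its older array name, Trfr2.

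RNA of whole liver pieces from male CD1 mice was hybridised to 15 single-colour arrays of 62976 spots. Group C was given saline in infancy and the empty plasmid later. The carcinogen diethylnitrosamine (DEN) was given to groups T and G, which then received the empty plasmid (T) or a plasmid with HA-tagged Gas1, a growth arrest gene, under the CAG promoter (G). The injection of saline or DEN fell on day 15 of life, at 25 μg of DEN per g of body weight. Plasmid, 50 μg each time, was given every week from week 28 to week 34 by hydrodynamic gene delivery, a rapid injection of a large volume into the blood, and livers were removed in week 35. The labels give the mice as 10 weeks old, and this is a different figure from the study's time line. All 3 groups, controls included, went through the weekly hydrodynamic injections, and the transfected cells lie mostly near blood vessels, so that group G livers mix cells with and without the transgene. One RNA code was shared by arrays 3 and 4 of group C, and another by arrays 4 and 5 of group T. Each such pair was averaged, which left 13 mice (3 of group C, 4 of T and 6 of G).

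Iron that enters the blood travels on transferrin and is taken into cells by transferrin receptors, and the surplus is stored inside ferritin shells. Ferroportin, the product of Slc40a1, is the only known exporter of iron from mammalian cells, and hepcidin, the peptide hormone made by hepatocytes from Hamp, binds it and sends it to degradation. Hepatocytes raise Hamp through bone morphogenetic protein (BMP) signals, for which hemojuvelin (Hfe2) is a co-receptor, and through STAT3 in inflammation. The mouse has a second hepcidin gene, Hamp2, whose product is not known to regulate iron.

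Because the hepcidin genes lie next to each other and are alike, their probes are shown first. Both are 60 bases long and on the minus strand, at chr7:31727490-31727549 for Hamp and chr7:31707520-31707579 for Hamp2 (mm9). Set against each other without gaps over 59 bases, they differed at 17 positions, and capitals mark the differing bases.
Hamp: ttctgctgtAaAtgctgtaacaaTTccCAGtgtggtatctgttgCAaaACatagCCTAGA
Hamp2: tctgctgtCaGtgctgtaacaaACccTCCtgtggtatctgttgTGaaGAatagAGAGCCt
Their identity over the aligned bases was 71.2%, and how far each RNA binds to the other gene's probe was not tested.

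The 250 bases before each start are shown as well, because the genes are alike. They are from RefSeq (GRCm38.p6, minus strand), at chr7:30944030-30944279 for Hamp and chr7:30924182-30924431 for Hamp2. Whether these letters bear on the signals was not tested. The letters GGCGCC, the core of the BMP response element described for Hamp, and TTCNNNGAA, the form of a STAT site, were searched on both strands, and capitals mark the matches.
Hamp promoter: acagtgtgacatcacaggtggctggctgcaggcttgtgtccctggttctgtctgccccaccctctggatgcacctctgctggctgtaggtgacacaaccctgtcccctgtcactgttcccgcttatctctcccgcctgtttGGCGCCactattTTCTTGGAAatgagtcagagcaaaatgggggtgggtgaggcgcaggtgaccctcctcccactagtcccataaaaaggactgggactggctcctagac
Hamp2 promoter: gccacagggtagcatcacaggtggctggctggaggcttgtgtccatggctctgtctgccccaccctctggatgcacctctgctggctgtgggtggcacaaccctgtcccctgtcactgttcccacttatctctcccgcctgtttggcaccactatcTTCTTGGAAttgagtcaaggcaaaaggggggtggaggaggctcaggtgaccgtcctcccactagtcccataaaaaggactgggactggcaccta
The promoters were 89.7% identical over 253 aligned columns, 6 of them gaps. Both held TTCNNNGAA, which starts 97 bases before the start in Hamp and 94 in Hamp2. Hamp held GGCGCC 109 bases before the start, and Hamp2 carries 1 substitution there, G4A, counted from the first base of GGCGCC with the Hamp base first. Of all 32851 promoter windows of this length, 9.59% held GGCGCC, 7.02% held TTCNNNGAA and 0.368% held both. A match describes letters only and is not evidence of binding. Of the other members in the RefSeq promoter table, 1 of the Tfrc windows held GGCGCC, and none of the windows of Tfr2, Cp, Fth1 or Ftl1 held either motif.

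The labelled tissue was borne out by the hepatocyte markers, since 8 of 8 were well above background on all arrays. Between 15707 and 29765 spots per array were well above background, none was saturated, and 218 to 3692 were marked as outliers by the scanner software and left out. Gas1 itself ran from 6.30 to 6.67 in C, from 6.41 to 6.61 in T and from 6.49 to 6.79 in G on the log2 scale. Its difference between groups G and T was 0.08 (adjusted p = 0.768, limma), and the ranges of the 3 groups overlapped. In a time course after delivery, the study detected RNA and protein of the tagged Gas1 in liver, with the RNA falling over time. Whether the array reads RNA of the plasmid was not tested. In group T, mouse T2 stood apart by its acute-phase genes (10 genes, among them Saa1, Orm1 and Fgb). Its log2 summed signal was 19.54, against 17.04 to 17.15 in the other mice of that group. Linear signals were summed, so the sum leans on the brightest gene, Fgb (means 16.86 in C, 16.76 in T and 16.61 in G). Taken singly, 4 of the 10 genes did not overlap between G and T, against 3.12% of all genes. Between T and C it was 1 of 10, against 19.1%, and 0 of 10 passed by limma in either comparison. In whole-liver RNA, fewer cells of a type and less RNA per cell cannot be told apart.

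All values that follow are log2 signals after background correction and quantile normalization, and differences are log2 fold changes. Between groups T and C, 1 of the 10 members passed the test, against a background of 2.38% of all 22031 genes tested (adjusted p under 0.05, limma with Benjamini-Hochberg adjustment). This was Tfrc, which rose. Of all genes, 1.22% rose and 1.17% fell. Between G and T, and between G and C, 0 of 10 passed by limma, against backgrounds of 0.127% (0.0272% higher, 0.0999% lower) and 0.427% (0.177% higher, 0.250% lower). By the methods' t-test with the same adjustment 0 of 10 passed in each of the 3 comparisons, so that the call of Tfrc was lost. At an unadjusted p under 0.05 by limma there were 5 members between T and C, 3 between G and T and 4 between G and C. All genes reached this at 20.3%, 10.9% and 13.2%. Without mouse T2, 0 of 10 members passed in any of the 3 comparisons by limma, and 4, 2 and 4 had an unadjusted p under 0.05. Of all 22024 genes then tested, 191, 5 and 56 passed by limma. The mice of the groups did not overlap for 5 members between T and C, against 19.1% of all genes. They did not overlap for 1 member between G and T, against 3.12%, and for 1 between G and C, against 5.86%. The 5 members between T and C were Fth1, Hamp2, Hfe2, Tfrc and Trf. For Trf the margin was narrow, with the highest of T at 17.605 and the lowest of C at 17.614. Hfe2 had 2 mice of C and 3 of T, and overlapped with marked spots kept. Fth1 overlapped in the authors' normalized table. The median difference of the 10 members was -0.15 between T and C, -0.04 between G and T and -0.09 between G and C, while the medians over all genes were 0.01, -0.01 and -0.00.

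**Figure D1:**
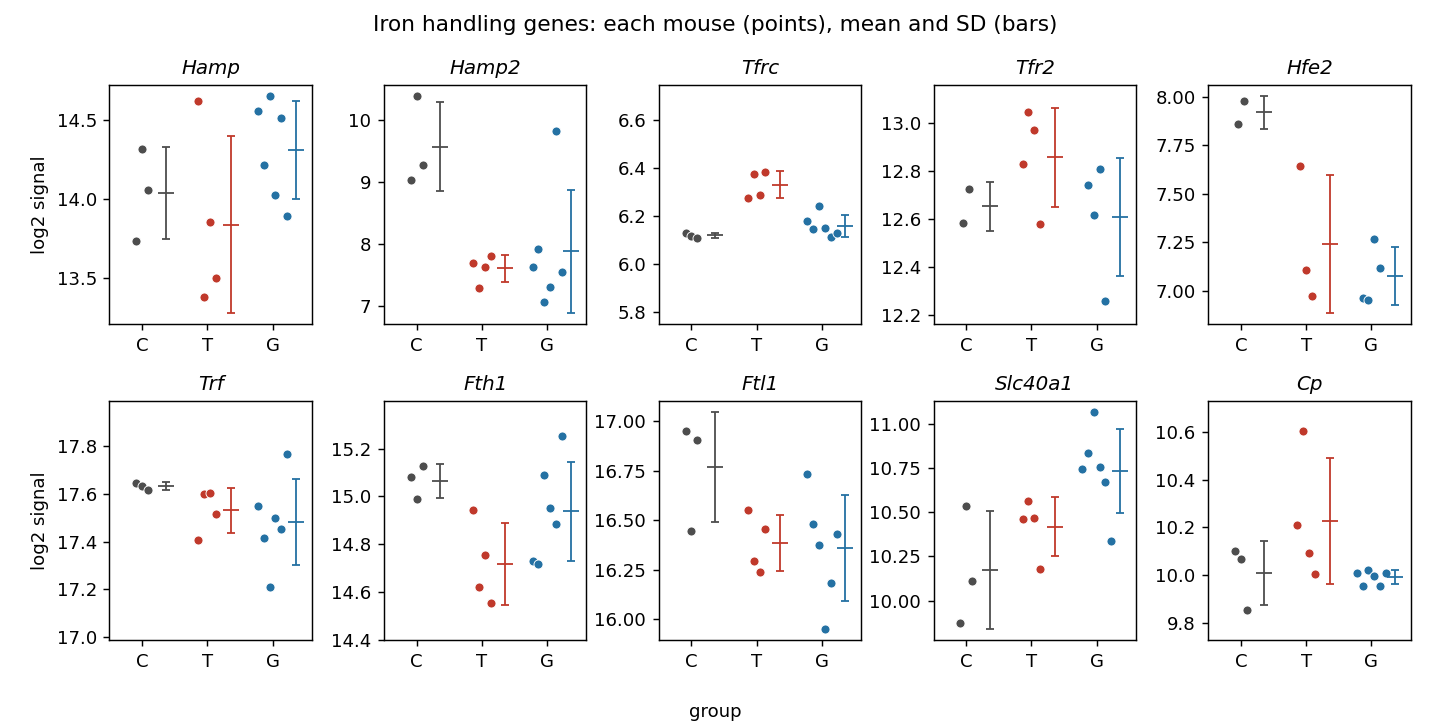
Log2 signal of the 10 iron handling genes in each mouse of groups C, T and G (points), with the mean and SD of the group beside them (bars), each panel on its own axis. Hamp2 lies at 9.04 or above in group C and at 7.81 or below in group T, and 1 mouse of group G lies at 9.83.

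Hamp, which encodes hepcidin, was well above background on all 15 arrays. Its signal was 13.73, 14.32 and 14.06 in mice C1, C2 and C3, and 14.62, 13.38, 13.85 and 13.50 in mice T1 to T4. In group G the lowest value was 13.89, the median 14.36 and the highest 14.65. The ranges of the groups overlapped, and both the highest and the lowest mouse of groups C and T were in group T. The means were 14.04 ± 0.29 (SD, n = 3) in C, 13.84 ± 0.56 (n = 4) in T and 14.31 ± 0.31 (n = 6) in G. None of the differences passed the test: T minus C was -0.20 (SE 0.27, adjusted p = 0.740, limma), G minus T was 0.47 (SE 0.23, adjusted p = 0.489, limma) and G minus C was 0.27 (SE 0.25, adjusted p = 0.696, limma). The 95% interval of T minus C ran from -0.79 to 0.39, so that a fall or a rise within these bounds remained compatible with the values. Mouse T2, with the highest acute-phase sum, had the lowest Hamp signal of all 13 mice.

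Hamp2 had the largest differences from group C of the 10 members, in both T and G. Its signal was 9.04, 10.39 and 9.28 in mice C1 to C3, and 7.69, 7.30, 7.64 and 7.81 in mice T1 to T4. In group G the lowest value was 7.08, the median 7.59 and the highest 9.83. All mice of group T lay below all mice of group C, and in group G the highest mouse, G5, lay within the range of group C while the next lay at 7.92. The probe was well above background on all 15 arrays.

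The means of Hamp2 were 9.57 ± 0.72 (SD, n = 3) in C, 7.61 ± 0.22 (n = 4) in T and 7.89 ± 0.99 (n = 6) in G. T minus C was -1.96 (SE 0.53, 95% interval -3.11 to -0.80), a fold of 0.257, and missed the threshold with an adjusted p of 0.0689 (limma). G minus C was -1.68 (SE 0.49, adjusted p = 0.162, limma), a fold of 0.311. G minus T was 0.27 (SE 0.45, adjusted p = 0.876, limma), with an interval from -0.70 to 1.25. Both differences from group C kept their sign under all 24 alternative settings run, and the calls depended on the setting. Without mouse G5, T minus C passed at an adjusted p of 0.0171 and G minus C, then -2.07, at 0.0355 (limma). G5 was singled out by these same values, and leaving it out lowers the spread that the test uses. No other single mouse left out gave a call of Hamp2. Without mouse T2 the adjusted p was 0.136 for T minus C and 0.181 for G minus C (limma).

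Because the pair sits side by side on one chromosome, the change of Hamp2 was set against that of Hamp within each mouse, a comparison chosen after the values were seen. The change of Hamp2 was lower than that of Hamp by 1.76 log2 units between T and C (difference -1.76, exact two-sided permutation test p = 0.0571, the smallest that 4 mice against 3 can give). Between G and C the same difference was -1.96 (exact permutation p = 0.0714, of which the smallest possible was 0.0238), and between G and T it was -0.20 (exact permutation p = 0.724). After Benjamini-Hochberg adjustment over these 3 comparisons the values were 0.107, 0.107 and 0.724. The mice of T did not overlap those of C, and 5 of 6 mice of G lay below all mice of C. The difference between T and C lay between -2.23 and -1.47 under all 24 settings.

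The mice also varied in Hamp2 within group C, where C2 lay 1.11 above the next mouse, which is a larger gap than the whole range of group T. Values on the slides taken separately were -2.30 for T minus C on slide 1 and -1.42 on slide 2. G minus C was -2.54 on slide 1 and -0.68 on slide 2, and G minus T was -0.24 and 0.74, with no call on either slide.

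Hfe2 encodes hemojuvelin, the BMP co-receptor that drives Hamp in hepatocytes (now named Hjv). Its probe, at chr3:96332113-96332172 (mm9), was marked as an outlier spot in 4 mice, and these were left out of the fit. The signal was 7.86 in C1 and 7.98 in C3. It was 7.64, 7.11 and 6.97 in T1, T3 and T4, and 6.96, 6.95, 7.27 and 7.12 in G1, G2, G3 and G6. Among the mice measured, group C lay above all mice of groups T and G.

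The means of Hfe2 were 7.92 ± 0.09 (SD, n = 2) in C, 7.24 ± 0.35 (n = 3) in T and 7.08 ± 0.15 (n = 4) in G. T minus C was -0.68 (SE 0.18, adjusted p = 0.0916, limma) and G minus C was -0.84 (SE 0.18, adjusted p = 0.0940, limma), folds of 0.625 and 0.557, and neither passed. G minus T was -0.16 (SE 0.15, adjusted p = 0.756, limma). With the marked spots kept, the left-out mice read 7.53 in C2, 7.02 in T2, 7.79 in G4 and 7.08 in G5, and the groups then overlapped. Both differences from group C stayed below 0 under all 24 settings. Without mouse T1, T minus C was -0.88 with an adjusted p of 0.0119 and G minus C passed at 0.0265 (limma). T1 was the mouse of group T nearest to group C, and no other single mouse left out gave a call of Hfe2.

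Tfrc encodes transferrin receptor 1, the main entry of transferrin iron into dividing cells, and was the only member that passed a test. It was read by 3 probes near the background of the array. The first probe, at chr16:32620470-32620529, was well above background on 0 of 4 arrays of group C, 5 of 5 of group T and 5 of 6 of group G. The second, spread over 217 bases of the genome at chr16:32624877-32625093, was above background on no array. The last, at chr16:32632255-32632314 and printed in 10 spots, was above it on 1, 5 and 3 arrays of groups C, T and G. The sequences of the first and second probes are given because the called change was read by one of them and not by the other, and all bases are in lower case.
Tfrc first probe: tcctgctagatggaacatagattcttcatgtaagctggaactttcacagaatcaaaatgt
Tfrc second probe: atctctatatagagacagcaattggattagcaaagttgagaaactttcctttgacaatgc
Averaged over the 3 probes, the signal was 6.13, 6.12 and 6.11 in mice C1 to C3, and 6.28, 6.38, 6.29 and 6.39 in mice T1 to T4. In group G the lowest value was 6.11, the median 6.15 and the highest 6.24. All mice of T lay above all mice of C and of G, while C and G overlapped.

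Tfrc rose by 0.21 between T and C (SE 0.047, 95% interval 0.11 to 0.31, adjusted p = 0.0394, limma). G minus T was -0.17 (SE 0.040, adjusted p = 0.119, limma) and G minus C was 0.04 (SE 0.044, adjusted p = 0.748, limma). Taken alone, the first probe lay at 6.23, 6.17 and 6.12 in mice C1 to C3, 6.57, 6.68, 6.57 and 6.87 in mice T1 to T4 and from 6.24 to 6.49 in group G. Its level in group C has only a bound, since none of the 4 arrays there read it well above background. With that bound at a mean of 6.20 over group C, its signal was at least 1.39-fold higher in group T. The measured means were 6.68 in T and 6.17 in C. The adjusted p of 0.0127 over all probes (limma) uses these group C readings. Since none of them was well above background, it is no test against a measured level. For the other probes T minus C was 0.02 and 0.12 (adjusted p = 0.907 and 0.278 over all probes, limma). The call was lost when any 1 of the mice C1, C2, C3, T2, T3, T4, G1, G4 and G5 was left out, with differences between 0.19 and 0.23 over all mice left out in turn. The summed signal of 8 erythroid genes, a lineage rich in this receptor, was 13.01 to 13.87 in C, 14.12 to 14.54 in T and 13.33 to 15.37 in G. Of these 8 genes, 4 were well above background on all arrays and 2 on none, and the part of blood cells in the result was not tested.

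**Figure D2:**
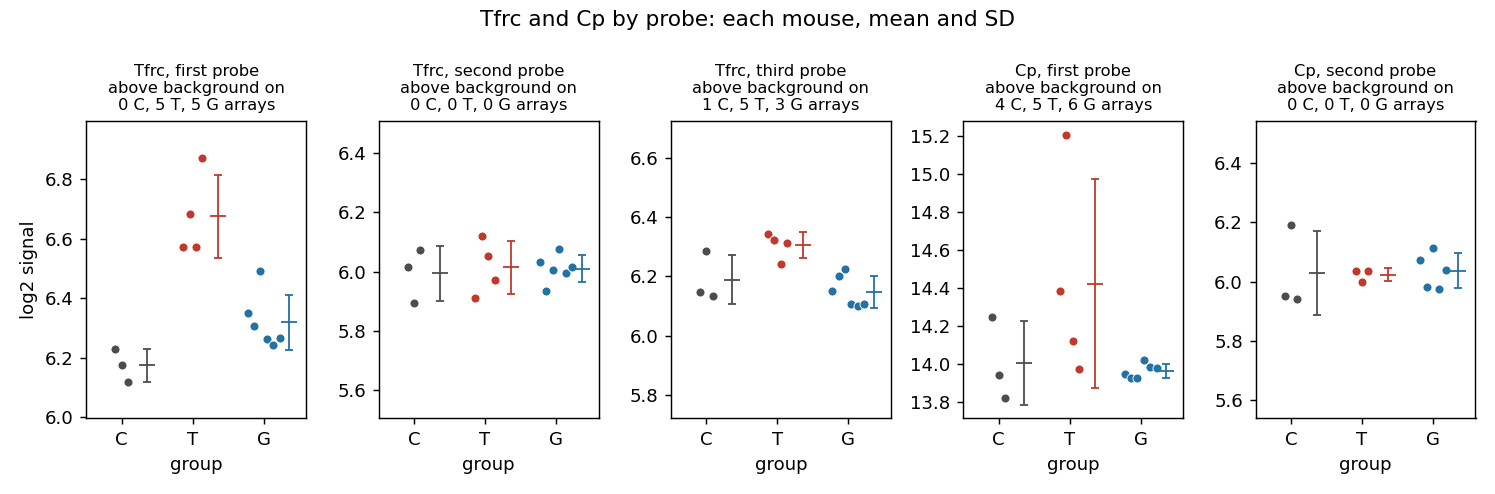
Log2 signal of each Tfrc and Cp probe in each mouse (points), with group mean and SD (bars) and the number of arrays well above background. The first Tfrc probe lies at 6.57 or above in group T and at 6.23 or below in group C, and the second probes of both genes lie near 6 in all groups.

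Tfr2, the hepatocyte sensor of transferrin saturation, was read by 1 probe (chr5:138028646-138028705), which was left out as an outlier spot in mice C2, G4 and G5. The signal was 12.58 and 12.73 in C1 and C3, and 12.83, 13.05, 12.97 and 12.58 in T1 to T4. It was 12.74, 12.62, 12.81 and 12.26 in G1, G2, G3 and G6, so that the groups overlapped. T minus C was 0.20 (SE 0.16, adjusted p = 0.548, limma) and G minus T was -0.25 (SE 0.13, adjusted p = 0.544, limma). G minus C was -0.05, with an interval from -0.42 to 0.32.

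Trf encodes transferrin, the plasma carrier of iron made by hepatocytes. Its mean over both probes was 17.65, 17.63 and 17.61 in mice C1 to C3, and 17.41, 17.60, 17.60 and 17.51 in T1 to T4. In group G the lowest value was 17.21, the median 17.47 and the highest 17.77. Group T lay below group C in every mouse, by a narrow margin, and group G spread around both. T minus C was -0.10 (SE 0.10, adjusted p = 0.633, limma), G minus T was -0.05 (adjusted p = 0.884, limma) and G minus C was -0.15 (adjusted p = 0.535, limma). The probes differed, with T minus C of 0.04 for that at chr9:103111207-103111266 and -0.26 for that at chr9:103112826-103112885. In the authors' normalized table T minus C had the other sign, 0.40 (adjusted p = 0.224, limma).

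The ferritin genes code for the heavy chain (Fth1), which oxidises iron as it enters the shell, and the light chain (Ftl1), which helps to build the iron core. Fth1 was 15.08, 14.99 and 15.13 in mice C1 to C3, and 14.94, 14.62, 14.76 and 14.55 in T1 to T4. In group G it ran from 14.72 over a median of 14.92 to 15.25. All mice of T lay below all mice of C, and group G covered both ranges in part. In the authors' normalized table T and C overlapped, with T1 at 14.91, T3 at 14.92 and C2 at 14.84. T minus C was -0.35 (SE 0.13, adjusted p = 0.150, limma), a fold of 0.786, and G minus T was 0.22 (SE 0.11, adjusted p = 0.487, limma). G minus C was -0.13 (adjusted p = 0.689, limma). With the scanner's processed signal T minus C was -0.14 (adjusted p = 0.589, limma).

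Ftl1 was 16.95, 16.45 and 16.91 in mice C1 to C3, and 16.55, 16.29, 16.24 and 16.46 in T1 to T4. In group G the lowest value was 15.95, the median 16.40 and the highest 16.73. Mouse C2 lay within the range of group T, so that the groups overlapped. T minus C was -0.38 (SE 0.17, adjusted p = 0.222, limma), G minus C was -0.41 (SE 0.15, adjusted p = 0.275, limma) and G minus T was -0.03 (adjusted p = 0.969, limma). In the authors' normalized table Ftl1 was 16.86, 15.87 and 16.91 in C1 to C3 and 16.64, 16.42, 16.38 and 16.57 in T1 to T4. There C2 lay below all mice of T. With the scanner's processed signal T minus C was -0.06 and G minus C was -0.43 (adjusted p = 0.886 and 0.291, limma). The probe's accession list also names a ferritin-like copy, so its signal may hold RNA of more than one locus.

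When arrays were scaled to their medians and not quantile normalized, T minus C of Hamp, Trf, Fth1 and Ftl1 took the other sign, at 0.86, 0.88, 0.71 and 0.86. G minus C likewise turned for Tfr2, Trf, Fth1, Ftl1 and Cp, at 0.42, 0.50, 0.73, 0.53 and 0.44, where the median over genes of mean signal over 12 was 0.83. With the same scaling the median T minus C was 0.12 across all genes and 1.01 across 634 genes of mean signal over 12. Hamp, Trf, Fth1 and Ftl1, each with a mean signal over 12, lay below the median of these bright genes in both scalings. Tfr2, also over 12, lay above it with quantile normalization (0.20 against -0.02) and below it with median scaling (0.91 against 1.01).

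Slc40a1 encodes ferroportin, the exporter that hepcidin removes from the cell surface, found in macrophages and hepatocytes. It was 9.88, 10.53 and 10.11 in mice C1 to C3, and 10.46, 10.56, 10.47 and 10.18 in T1 to T4. In group G it ran from 10.34 over a median of 10.75 to 11.07. The means were 10.17 ± 0.33 (SD, n = 3) in C, 10.42 ± 0.17 (n = 4) in T and 10.73 ± 0.24 (n = 6) in G, and neighbouring groups overlapped. G minus C was 0.56 (SE 0.16, 95% interval 0.22 to 0.90), a fold of 1.48, and did not pass (adjusted p = 0.144, limma). T minus C was 0.25 (adjusted p = 0.457, limma) and G minus T was 0.32 (adjusted p = 0.446, limma). The 3 differences kept their sign under all 24 settings. The summed signal of 9 Kupffer cell and macrophage genes was 10.86 to 11.32 in C, 11.11 to 11.49 in T and 11.09 to 11.64 in G. Of these 9 genes, 5 were above background on all arrays and Cd163 on none, and their part in the Slc40a1 values was not tested.

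Cp encodes ceruloplasmin, the plasma copper enzyme that oxidises iron as it leaves cells and rises in the acute phase. Of its probes, that at chr3:19889071-19889130, for transcript variant 2, was well above background on all 15 arrays. That at chr3:19907511-19907570, for variant 1, was above background on none. The first read 14.25, 13.94 and 13.82 in mice C1 to C3, 14.39, 15.21, 14.12 and 13.98 in T1 to T4, and 13.92 to 14.02 in group G. Mouse T2 was the highest of all, and the 6 mice of group G lay within the range of group C.

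For the probe above background, T minus C of Cp was 0.42 (SE 0.22, adjusted p = 0.320 over all probes, limma) and G minus T was -0.46 (SE 0.18, adjusted p = 0.416, limma). Averaged over both probes, T minus C of Cp was 0.22 (SE 0.11, adjusted p = 0.301, limma), G minus T was -0.24 (SE 0.10, adjusted p = 0.389, limma) and G minus C was -0.02 (adjusted p = 0.966, limma). Without mouse T2, T minus C of this average was 0.10 (adjusted p = 0.528, limma) and G minus T was -0.11 (adjusted p = 0.676, limma). The genes whose signal followed Cp most closely over the 13 mice were Lrg1 (Pearson r = 0.93), Hpx (0.90) and Steap4 (0.89), of 7930 genes above background on all arrays. Hpx binds free heme, and Steap4 reduces iron and copper. These correlations are a description, and T2 carries the highest Cp, Lrg1, Hpx and Steap4 values.

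**Figure D3:**
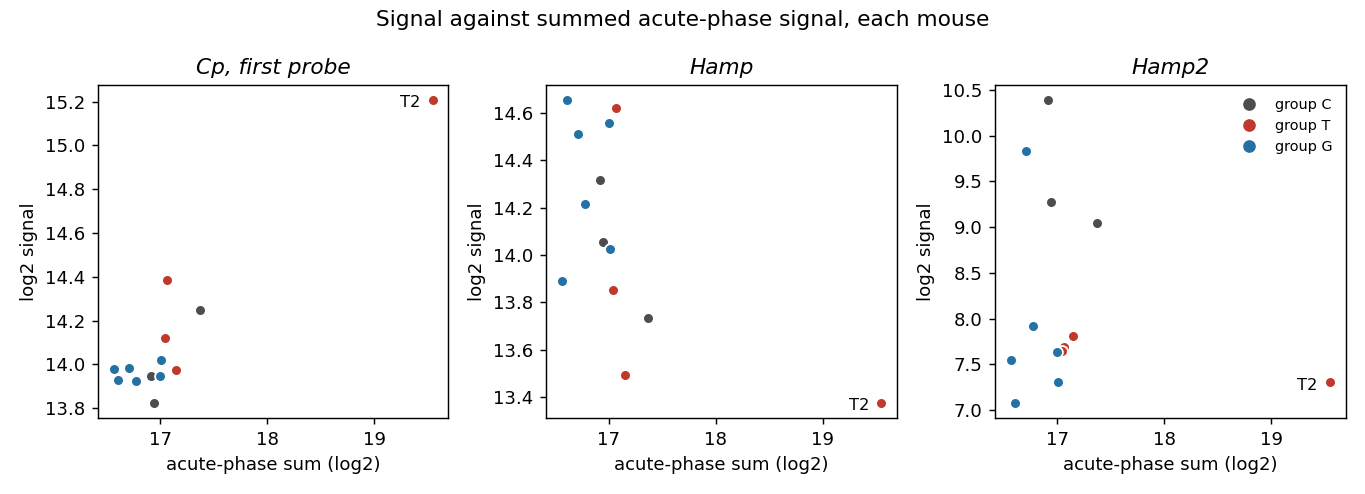
Log2 signal of the first Cp probe, Hamp and Hamp2 (vertical axes) against the log2 summed signal of 10 acute-phase genes (horizontal axis), 1 point per mouse, coloured by group. Of these 10, Fgb has the highest mean in each group and weighs most in the sum. Mouse T2 stands alone at 19.54 and has the highest Cp and the lowest Hamp signal, and without it no mouse exceeds 17.37 on the horizontal axis.

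For the other members, the 3 genes of closest pattern over the mice were as follows, again as a description with r from 0.86 to 0.97. Hamp was most like Sgk2, Msh3 and Soat2 and Hamp2 most like Rmi1, Mzt2 and Coq4. Tfr2, over 10 mice, was most like Rps6kb2, BC017643 and Tmx1, and Hfe2, over 9 mice, most like Lonrf3, LOC434624 and H3f3b. Trf was most like Klk1b3, B230118H07Rik and 5430417L22Rik. Fth1 was most like Fitm1, G0s2 and Mtnr1a, and Gata4 and St5 were among the 3 most like Ftl1. Slc40a1 was most like Gm13157, Zfp259 and Rbms1. Tfrc, which was not above background on all arrays, was left out, and none of the other 9 was among the closest 3 of another.

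**Figure D4:**
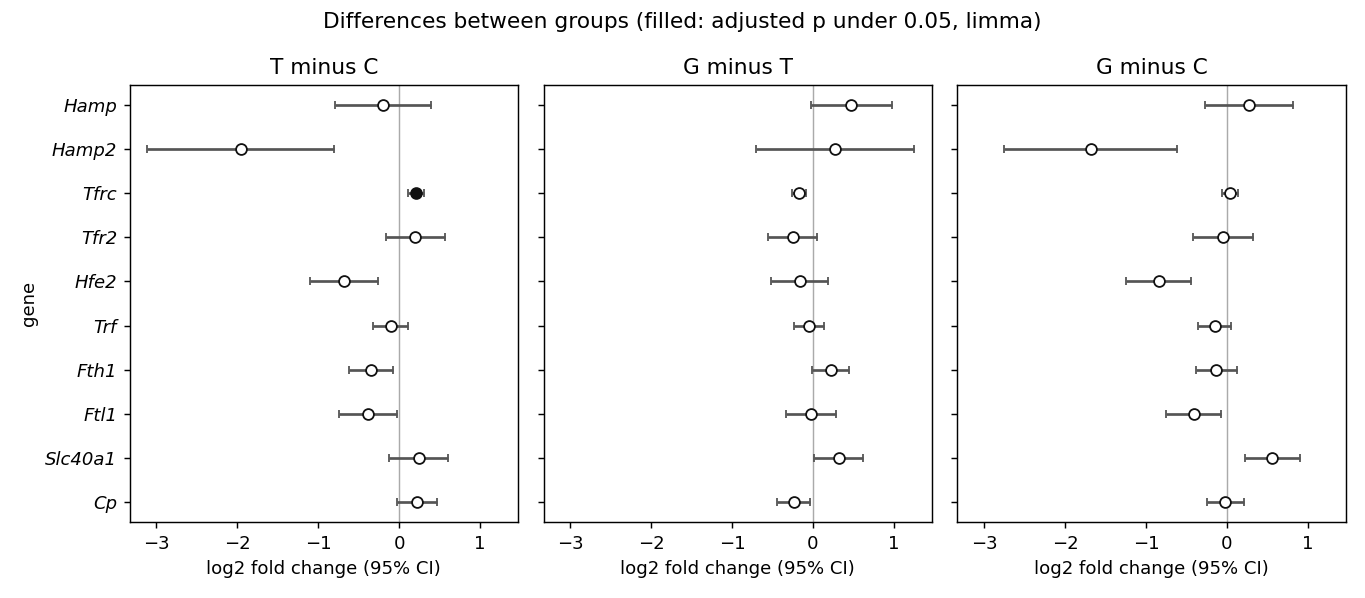
Log2 fold change of the 10 genes in the 3 comparisons (points) with 95% intervals from limma (bars), filled where the adjusted p was under 0.05. Only Tfrc in T minus C is filled, and the widest intervals belong to Hamp2.

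Around the 10 members, 79 other genes of iron metabolism were read on the arrays, in lists for hepcidin control, uptake and scavenging, storage, export, the iron regulatory proteins, heme and mitochondrial iron use. Of the 79, 1 passed between T and C by limma, and 0 passed between G and T and between G and C, against 2.38%, 0.127% and 0.427% of all genes. By the methods' t-test 0 passed in each of the 3 comparisons. At an unadjusted p under 0.05 by limma there were 24 (12 higher, 12 lower), 17 (11 higher, 6 lower) and 15 (11 higher, 4 lower) of the 79, against 20.3%, 10.9% and 13.2% of all genes. The gene that passed was Cpox, an enzyme of heme synthesis, at 10.76 ± 0.10 (SD, n = 3) in C, 10.21 ± 0.19 (n = 4) in T and 10.51 ± 0.13 (n = 6) in G. Cpox fell by 0.55 between T and C (SE 0.11, adjusted p = 0.0244, limma) without overlap of the mice, though with median scaling the difference was 0.43. The call was also lost without any 1 of the mice C1, C2, C3, T2 and T4, and G minus T was 0.30 (adjusted p = 0.225, limma). In the heme list, 1 of 13 genes thus passed between T and C. The heme oxygenase gene Hmox1, which opens the heme ring and frees its iron, had the lowest p of its list between G and T. Its difference was 0.33 (SE 0.093, adjusted p = 0.195, limma). The mice did not overlap, by a narrow margin, with the lowest of G at 7.527 and the highest of T at 7.524.

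Among 26 genes that control hepcidin, 0 passed by limma in any comparison. At an unadjusted p under 0.05 (limma) there were 5, 4 and 4 in T minus C, G minus T and G minus C. The shares of all genes were 20.3%, 10.9% and 13.2%. In the 3 comparisons 5, 3 and 4 of these were higher and 0, 1 and 0 lower. Of all 26, 16 lay above 0 and 10 below in T minus C. Socs3, the feedback inhibitor of STAT3 signalling, had the lowest p between T and C, with means of 6.74 ± 0.48 (SD, n = 3) in C, 7.69 ± 0.65 (n = 4) in T and 7.61 ± 0.31 (n = 6) in G. T minus C was 0.96 (adjusted p = 0.123, limma) and G minus C was 0.87 (adjusted p = 0.225, limma). Gdf15 had the lowest p between G and T, with a difference of 0.55 (adjusted p = 0.389, limma). Of genes named here for their role and outside the rule for named genes, the BMP target Id1 differed by -0.17 between T and C and by 0.46 between G and T (adjusted p = 0.740 and 0.403, limma). The hemochromatosis gene Hfe differed by -0.24 between T and C (adjusted p = 0.325, limma), and Tmprss6, the protease that cleaves hemojuvelin, by -0.17 (adjusted p = 0.575, limma). Bmp6, the iron-sensing ligand made by liver endothelium, was well above background on 1 of 15 arrays and gave no level to compare.

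Of 13 genes of iron uptake and scavenging, 0 passed by limma, with 6, 6 and 1 at an unadjusted p under 0.05, beside the same shares of all genes (20.3%, 10.9% and 13.2%). Slc39a14, a carrier of iron not bound to transferrin, was 8.40 ± 0.13 (SD, n = 3) in C, 9.07 ± 0.44 (n = 4) in T and 8.78 ± 0.15 (n = 6) in G. T minus C was 0.67 (SE 0.19, adjusted p = 0.0731, limma), with no overlap. Hp, which encodes haptoglobin, the binder of free hemoglobin, was 17.27 ± 0.70 (n = 4) in T and 16.32 ± 0.28 (n = 6) in G. G minus T of Hp was -0.95 (SE 0.26, adjusted p = 0.170, limma). The mice did not overlap, again narrowly, with the lowest of T at 16.796 and the highest of G at 16.788. Lcn2, which binds bacterial iron carriers and belongs to the acute phase, had the widest differences of the list, 2.62 between T and C and -3.04 between G and T (adjusted p = 0.237 and 0.276, limma). Its SD in group T was 2.99, with mouse T2 the highest. Without T2, T minus C of Lcn2 was 1.22 and G minus T was -1.64, G minus T of Hp was -0.60 and T minus C of Slc39a14 was 0.45 (adjusted p = 0.0662, limma).

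Of 15 genes of mitochondrial iron use, 0 passed by limma, with 4, 2 and 5 at an unadjusted p under 0.05, beside 20.3%, 10.9% and 13.2% of all genes. Glrx5, which helps to pass on iron-sulfur clusters, had the lowest p between G and T, a difference of 0.24 (adjusted p = 0.349, limma). Of 4 other export genes, Abcg2 differed by -0.49 between T and C and by 0.37 between G and T (adjusted p = 0.0951 and 0.305, limma). The heme exporter Flvcr1, listed as Mfsd7b, was above background on 0 of 4 arrays of C, 2 of 5 of T and 3 of 6 of G, so that its level in C is only a bound, and G minus T was -0.10 (adjusted p = 0.552, limma). Of the storage and chaperone genes, Ftl2 and Pcbp2 differed by -0.19 and 0.12 between T and C and by -0.37 and 0.11 between G and T, and none passed. Aco1, iron regulatory protein 1, differed by -0.14 between T and C and by -0.15 between G and T and did not pass.

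**Figure D5:**
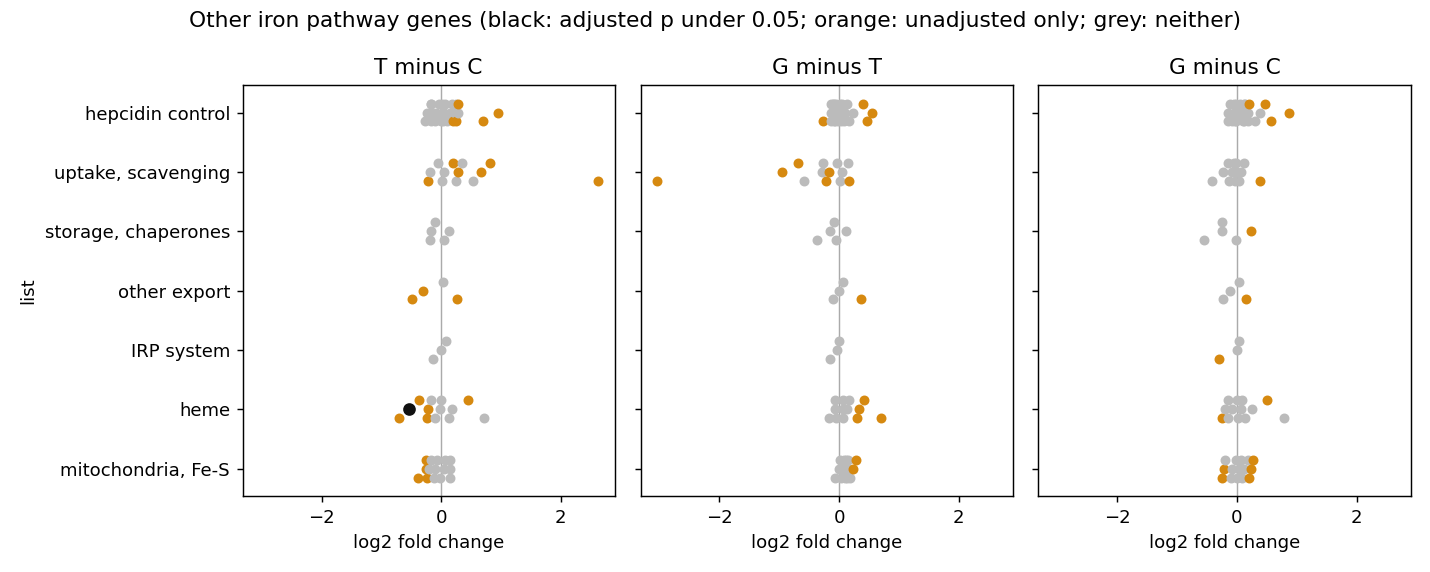
Log2 fold change (horizontal axis) of each of the 79 other iron pathway genes by list in the 3 comparisons, black where the adjusted p was under 0.05, orange where only the unadjusted p was, grey otherwise. The black point is Cpox in T minus C at -0.55, and the points farthest from 0 are Lcn2, at 2.62 and -3.04.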

How the data were processed

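For each Agilent array the authors deposited the scanner file, made with Feature Extraction 10.7.3.1 per the file headers, with linear intensities of each spot and its local background and no normalization between arrays. Probe positions follow mm9. The authors also deposited a log2 table of all arrays after normexp background correction and quantile normalization. Its column medians were all 6.11, so its scale is log2 without centring, and it was used as an alternative. Values rebuilt here differed from it by a median of 0.0028, and 99.2% lay within 0.05. Over 16 on the log2 scale, where Trf, Ftl1 and Hp lie, 32.3% of values differed by more than 0.2.

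Intensities were corrected with limma 3.58.1 (R 4.3.3) by normexp with an offset of 50, outlier spots were set to missing, and 59305 non-control spots were quantile normalized. Spots were averaged per probe, probes were centred and averaged per gene symbol, and arrays of 1 RNA code were averaged, giving 13 mice. In these pairs the SD between arrays was 0.50 (group C) and 0.61 (group T) times that of the next closest pair. The fit had 1 mean per group over all mice, without a trend, and p-values were adjusted by Benjamini-Hochberg over 22031 genes. A gene was called at an adjusted p under 0.05. The number of arrays limits the precision. Arrays with different RNA codes were taken as different mice, and the p-values measure the spread between them.

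The members and lists were chosen with earlier results of these data known. Genes named beside the members were those called in any comparison, the gene of lowest p per list in T against C and in G against T, and the 3 of highest Pearson correlation with each member. Alternatives changed the background correction, scaling, dim probes (well above background on at least 3 arrays), probe summary, flagged spots, pairs, slide, replicate block, table, test and each mouse. The fit was tested on simulated data. Promoters (RefSeq, GRCm38.p6) were aligned globally with Biopython 1.88. Figures were drawn with matplotlib 3.10.9. Protein sequences were not used here. Some genes that the naming rule would give are not reported here.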

Additional observations from a re-analysis of the deposited data

Results flagged for a closer look

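Hamp2 in mouse G5 of group G stood at 9.83, apart from the other 5 mice of its group, which lay between 7.08 and 7.92. Its gap to the next mouse was 0.692 of the whole range of the group, above the limit of 0.625 for 6 samples. This rule marks about 1 in 20 groups by chance, and 1 of the 19 groups tested for the members was marked. The value lies within the range of group C, and the values of the comparisons without this mouse are given beside the Hamp2 results.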

How the results depend on the processing

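Over 24 alternative settings, 683 of 720 differences of the members kept their sign. Members called between T and C, 1 as reported, became 0 with the scanner's processed signal, slide 1 only, slide 2 only and the t-test. They became 4 with median scaling (Cp, Slc40a1, Tfrc and Trf) and 4 with the 15 arrays as separate mice (Fth1, Hamp2, Hfe2 and Tfrc). They became 2 with dim probes left out and 2 with slide as a term (Hamp2 and Tfrc each time), and leaving out each mouse gave 0 to 2. Between G and T, 1 was called with 15 arrays (Tfrc). Between G and C, 1 was called with 15 arrays and 1 with slide as a term (Hfe2), and leaving out each mouse gave 0 to 1. Other iron genes called between T and C, 1 as reported, became 0 with the processed signal, 0 on slide 1 only, 0 on slide 2 only and 0 with the t-test, 17 with median scaling, 9 with 15 arrays, 4 with slide as a term and 2 with the authors' table (Cpox and Hp), and leaving out each mouse gave 0 to 2. With median scaling Trf took the other sign between T and C, 0.88 (adjusted p = 0.0320, limma), as did Cpox, 0.43. Calls over all genes between T and C were then 2818 higher and 14 lower, against 268 and 257, and 57 in all with the processed signal, whose median difference was -0.40. The cause of these changes was not tested.

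After removal of the group means, mice of one replicate number had r from -0.31 to 0.25 over 10 pairs. Pairs of unlike number were not set beside them, so this cannot exclude a pairing by number. No pairing was used in the main fit. With the replicate number as a block, 1 member was called between T and C, Hamp2 (adjusted p = 0.0362, limma) in place of Tfrc (0.113), and 1 between G and C, Hamp2 (0.0483). Of the other iron genes 1 was called between T and C, Alad in place of Cpox.

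Limits: each group held 3 to 6 mice, Hfe2 and Tfr2 lost 4 and 3 mice to marked spots, and Tfrc lay near background, where the offset shrinks fold changes.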
